A study of Mus musculus with 9 samples.

Results

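The miR-379/miR-410 cluster is a run of miRNA hairpins in the imprinted Dlk1-Dio3 region of mouse chromosome 12. Its members were taken by name: every row of the miRNA table whose number belongs to the cluster, with any letter suffix and either arm. This gave 60 of 1140 rows, and they came from 36 hairpins. Of the 36 numbers searched for, 33 had at least 1 row, and miR-1197, miR-544 and miR-453 had none. The cluster itself was chosen by the differences between the groups in these libraries, where earlier results showed it higher after thioacetamide (TAA) and still high after withdrawal. The fold changes of its members between the groups are therefore given as a description, without p-values.

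Liver small RNA was sequenced from 9 male C57BL/6 mice that were 8 weeks old at the start. The control group (n = 3) received normal saline by intraperitoneal injection for 8 weeks. The TAA group (n = 3) received TAA, a hepatotoxin that causes liver fibrosis, for 8 weeks, and the recovery group (n = 3) received the same 8 weeks of TAA followed by 8 weeks without treatment. All mice were of the same strain, with no other genotype given. The control and TAA groups were sampled after the 8 weeks of injections, and the recovery group at the end of these further 8 weeks. Withdrawal and elapsed time therefore cannot be told apart. The control mice were also younger at sampling than the recovery mice, so that comparison is not matched for age. TAA is a chemical model of fibrosis, and whole liver tissue was used.

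The hairpins of the cluster are cut from long RNAs that are transcribed from the maternally inherited chromosome only. Each hairpin can give a mature miRNA from its 5' arm (5p) and another from its 3' arm (3p), and usually one of them is kept. A mature miRNA finds target mRNAs mainly through its seed, the bases from position 2 to position 8. The cluster is best known from embryo, placenta, brain and neonatal liver, and the adult liver normally holds little of it.

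In the GENCODE M21 annotation of GRCm38 (mm10, as used by the authors), the 36 hairpins lay between chr12:109709060-109709125 (Mir379) and chr12:109747878-109747960 (Mir3072), a span of 38.9 kb. On the plus strand there were 35 hairpins, and Mir299b alone lay on the minus strand, opposite Mir299a. The long non-coding RNA gene Mirg starts at base 109729764 and ends at base 109749460 on the plus strand. Of the hairpins, 23 lay upstream of Mirg, 9 overlapped an exon of Mirg and 4 lay in its introns. Both arms were listed for 24 hairpins, the 3p arm alone for 10 and the 5p arm alone for 2.

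Mature sequences were found by name in RefSeq (GRCm38.p6) for 57 of the 60 rows. miR-376c-3p, miR-485-5p and miR-487b-3p had no entry. The sequences below are printed 5' to 3' with the seed in capitals. The first set holds the 6 most abundant members, which carry most of the counts described here:
miR-411-5p: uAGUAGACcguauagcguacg
miR-379-5p: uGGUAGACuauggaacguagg
miR-541-5p: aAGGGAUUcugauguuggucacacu
miR-381-3p: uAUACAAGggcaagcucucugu
miR-409-3p: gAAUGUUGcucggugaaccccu
miR-300-3p: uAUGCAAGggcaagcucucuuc

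The seeds of miR-411-5p and miR-379-5p differ at 1 base, and the sequences are identical at 14 of 21 positions counted from the 5' end. miR-300-3p and miR-381-3p also differ at 1 seed base and are identical at 19 of 22 positions. The second set holds the members that share a whole seed, since targets are found mainly through the seed:
miR-379-3p: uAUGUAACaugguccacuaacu
miR-411-3p: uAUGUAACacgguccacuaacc
miR-1193-5p: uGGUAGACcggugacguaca
miR-299a-3p: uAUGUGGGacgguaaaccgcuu
miR-299b-3p: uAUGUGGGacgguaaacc

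miR-379-3p and miR-411-3p have the seed AUGUAAC and are identical at 20 of 22 positions. miR-1193-5p shares the seed GGUAGAC with miR-379-5p printed above. miR-299b-3p is contained whole in miR-299a-3p, and miR-299b-5p in miR-299a-5p, so that reads of the miR-299b rows cannot be assigned by sequence. Both miR-299b rows had the same count in every library, 5 in total for each. The third set holds the members that were tested and called between the TAA and recovery groups, with miR-376a-3p as the nearest relative of miR-376b-3p:
miR-376b-3p: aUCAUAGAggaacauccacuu
miR-376a-3p: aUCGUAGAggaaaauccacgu
miR-369-5p: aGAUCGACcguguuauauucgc
miR-410-3p: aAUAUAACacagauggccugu

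miR-376b-3p and miR-376a-3p differ at 1 seed base and are identical at 18 of 21 positions. Near-identical rows of this kind can exchange reads, and how the authors treated reads that match several miRNAs was not given in the sources used here.

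The libraries held 9071847 to 12983378 counts. The members took 1090, 1766 and 1269 counts in the control libraries (here and below in the order of replicates 1 to 3). They took 11742, 26132 and 24224 counts in the TAA libraries and 11137, 15307 and 20839 counts in the recovery libraries. This was 0.0084% to 0.0172% of a control library, 0.104% to 0.288% of a TAA library and 0.0912% to 0.167% of a recovery library. Between 28 and 33 members had a count in a control library, between 52 and 57 in a TAA library and between 49 and 50 in a recovery library. In both the number and the sum of member counts, every TAA and recovery library was above every control library, whereas the TAA and recovery sums overlapped.

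Levels between libraries depend on the scale. The tests used TMM factors, which set the bulk of miRNAs equal between libraries; the alternative divides by the library total, as the authors' TPM does. The TMM factors were 0.745 to 0.795 in control, 1.49 to 1.65 in TAA and 0.752 to 0.87 in recovery libraries. Going from TMM to library totals moved the median log2 fold change over all rows tested by -0.86 in recovery vs TAA, whereas it moved by 1.12 when TAA was compared with control and by 0.18 when recovery was. The summed level of 3 hepatocyte miRNA rows (miR-122-5p, miR-122-3p and miR-192-5p) was 361981 to 370691 TMM-scaled CPM (counts per 1000000 of the scaled library size) in control, 104664 to 107909 in TAA and 274001 to 404507 in recovery libraries. A row was called at a fold change of 2 or more and a false discovery rate (FDR) under 0.05 by edgeR. All 3 hepatocyte rows were called down in TAA vs control and 2 of 3 up in recovery vs TAA. Their part in the scale was not tested.

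In TAA replicate 3, 3 skeletal muscle miRNA rows (miR-1a-3p, miR-133a-3p and miR-206-3p) summed to 4706 CPM, against 8.93 to 48.9 CPM in the other 8 libraries. The summed members were at 1748 CPM in TAA replicate 2, where the muscle rows were at 12.6 CPM, and at 1619 CPM in TAA replicate 3. Of the muscle rows, 1 of 3 was called down in recovery vs TAA. Their part in the cluster's level was not tested.

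On the TMM scale, the summed members were 8.02 times higher in the TAA group than in control and remained 9.06 times higher in the recovery group. They reached 106, 230 and 171 CPM in the control libraries. The sum was 697, 1748 and 1619 CPM in the TAA libraries and 1212, 1433 and 1944 CPM in the recovery libraries. No TAA or recovery library came near a control library. The recovery mean, 1530 ± 375 CPM (SD, n = 3), was 1.13 times the TAA mean, 1355 ± 573 CPM, which is less than the spread within either group.

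On library totals the order of the treated groups turned. The mean sum was 128 TPM in control, 2187 TPM in TAA and 1277 TPM in recovery libraries (n = 3 each). The recovery mean was thus 0.584 of the TAA mean and still 9.99 times the control mean. The recovery values were 912, 1247 and 1672 TPM and the TAA values 1037, 2881 and 2643 TPM, so that recovery overlapped TAA replicate 1 only. A raised level after withdrawal was seen on both scales, but a full retention of the TAA level was seen on the TMM scale only.

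**Figure D1:**
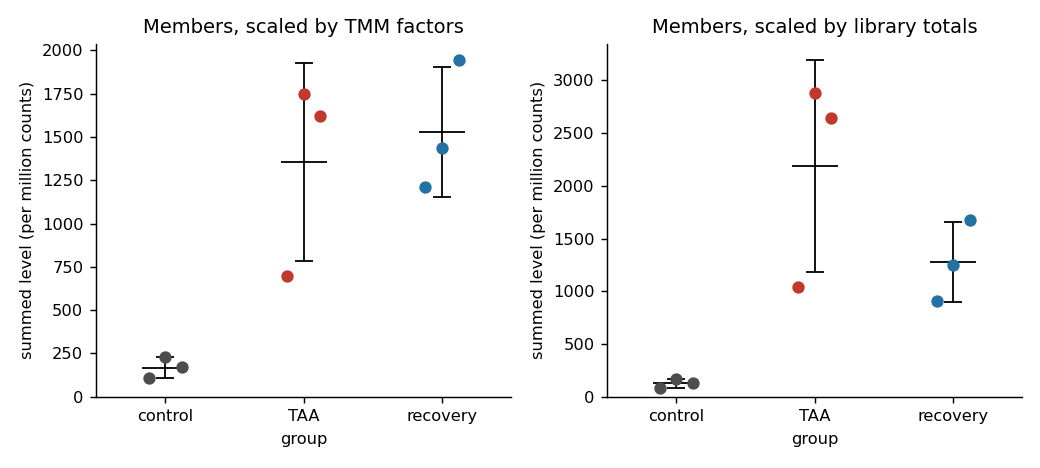
Summed level of the 60 members in each library (y axis; left, CPM scaled by TMM factors; right, TPM, scaled by library totals) by group (x axis). Points are mice, the line is the mean and the bars are the SD. The recovery points lie from 1212 to 1944 on the left and from 912 to 1672 on the right, and the control points lie at or below 230 on both.

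The TAA group was not uniform. TAA replicate 1 was below its group mean in all 16 members whose mean over the libraries was at least 5 CPM, with a median deviation of -0.78 on the log2(CPM + 1) scale, and TAA replicate 2 was above it in 16 of 16. Recovery replicate 3 was above its group mean in 16 of 16. The members moved together between mice of the same group: over the 120 pairs of these members, the median Pearson's r of their deviations from the group means was 0.82 and every pair was above 0. Over 30628 pairs of rows outside the imprinted lists at the same minimum level, the median was 0.03 and 52.7% of pairs were above 0. Other miRNAs of the imprinted region, compared below, were left out of these pairs. Their Rtl1-antisense group also had its lowest TAA sum in replicate 1 and its highest recovery sum in replicate 3. These correlations are descriptions over 9 libraries; the points share library, scale and the low TAA replicate 1.

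Most of the signal came from neighbouring hairpins at the 5' end. Mir379 and Mir411 together held 67.0% to 70.4% of the member counts of a TAA library, 68.6% to 73.2% of a recovery library and 69.3% to 71.6% of a control library. miR-411-5p, the most abundant member, was at 41.2, 91.8 and 67.2 CPM in the control libraries. It was at 257, 664 and 652 CPM in TAA and at 474, 602 and 773 CPM in recovery libraries. Its log2 fold change was 3.15 ± 0.28 (SE) in recovery vs control, 2.92 ± 0.45 in TAA vs control and 0.15 ± 0.37 between recovery and TAA.

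miR-379-5p, whose hairpin opens the cluster, followed the same order. It was at 31.9, 69.2 and 50.1 CPM in control, at 205, 484.7 and 466 CPM in TAA and at 333, 399 and 619 CPM in recovery libraries. TAA replicate 1 was again the lowest treated library, and treated and control libraries did not overlap. The log2 fold change in recovery vs TAA was 0.14 ± 0.37 (SE).

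The next most abundant members come from the middle and the 3' end of the cluster. miR-541-5p was at 5.52, 13.4 and 14 CPM in control, 58.2, 138 and 118 CPM in TAA and 95.6, 98.6 and 109 CPM in recovery libraries. The recovery libraries were close to each other and lay within the range of the TAA libraries. miR-381-3p was at 5.23, 16.5 and 10.9 CPM in control, 52.3, 130 and 102 CPM in TAA and 75.8, 105 and 129 CPM in recovery libraries. miR-409-3p was at 3.78, 8.46 and 6.34 CPM in control, 34.4, 73 and 63.4 CPM in TAA and 57.7, 51.3 and 71.9 CPM in recovery libraries. In recovery vs TAA the log2 fold changes of these 3 members were -0.13 ± 0.31, 0.04 ± 0.35 and 0.00 ± 0.29 (SE), all within 1 SE of 0 on the TMM scale. On library totals they were -1.01, -0.82 and -0.87.

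miR-300-3p, the near relative of miR-381-3p, stood nearer to its control level in TAA livers. It was at 5.04, 5.33 and 4.45 CPM in control, 15, 43.9 and 33.7 CPM in TAA and 24.1, 26.3 and 36.2 CPM in recovery libraries. Its log2 fold change was 2.59 ± 0.42 (SE) between TAA and control and 2.48 ± 0.23 between recovery and control, against 3.07 ± 0.50 and 3.20 ± 0.36 for miR-381-3p. The difference between the 2 members was not tested.

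At about 10 CPM, the direction in recovery vs TAA differed between members. miR-299a-3p was at 1.36, 2.21 and 2.97 CPM in control, 7.18, 19.3 and 14.2 CPM in TAA and 22.2, 21.2 and 28.1 CPM in recovery libraries, so that every recovery library was above every TAA library. miR-411-3p was at 1.94, 2.6 and 1.35 CPM in control, 7.83, 18.9 and 17.2 CPM in TAA and 19.8, 16.5 and 24.9 CPM in recovery libraries. miR-134-5p, known from neurons, where it limits dendritic spine growth, went the other way, with 6.94, 25.9 and 19.8 CPM in TAA and 10.6, 10.8 and 15.6 CPM in recovery libraries, after 1.36, 2.08 and 0.945 CPM in control. The log2 fold changes in recovery vs TAA were 0.73 ± 0.36, 0.39 ± 0.36 and -0.60 ± 0.46 (SE) on the TMM scale. On library totals all 3 were below 0, at -0.14, -0.48 and -1.47.

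**Figure D2:**
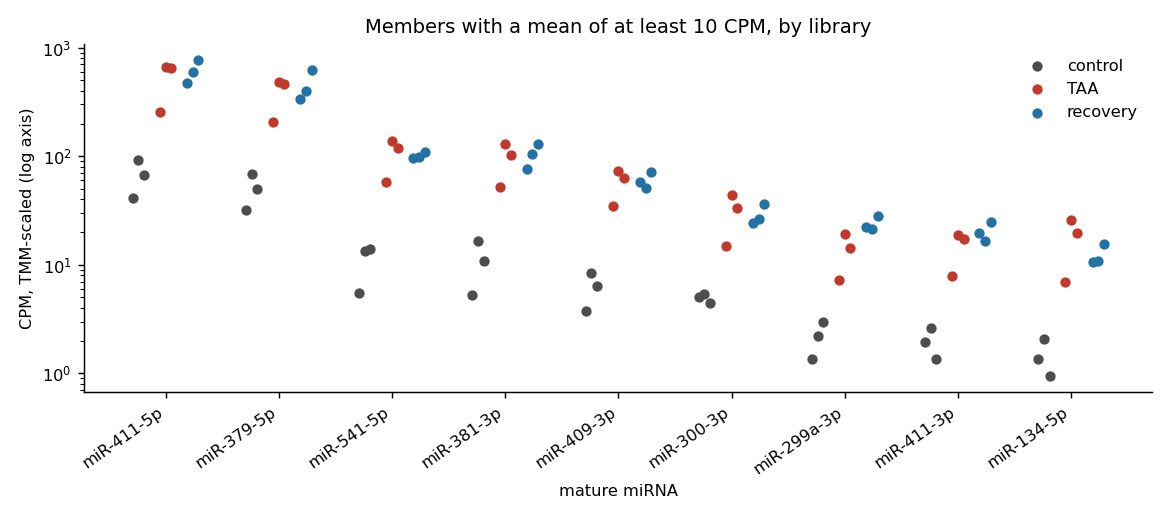
Level of the 9 members with a mean of at least 10 CPM in each library (y axis, TMM-scaled CPM, log axis; x axis, mature miRNA in order of mean level; points are mice, colours are groups). Every TAA and recovery point lies above every control point of the same member, and 1 TAA library, replicate 1, is the lowest TAA point throughout.

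In TAA vs control, 29 members passed the filter on low counts, which needs counts in at least 1 group, and 28 of them were called up. Over all 420 rows tested, 25% were called up. The contrast was used to choose the cluster, so nothing is read from this count. The median log2 fold change was 3.07 over the members tested and 0.11 over all rows, and the members ranged from 1.41 to 3.88. The member not called, miR-329-5p, had 0, 14 and 1 counts in control libraries and 29, 31 and 21 in TAA libraries. On the CPM scale control replicate 2, at 1.82 CPM, lay among the TAA libraries, at 1.72, 2.07 and 1.4 CPM.

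In recovery vs control, 29 members were tested and 27 were called up, against 10.5% of the 391 rows tested. Again this contrast chose the cluster. The median log2 fold change was 3.16 over the members tested and -0.03 over all rows, and the members ranged from 1.62 to 4.19. The members not called were miR-329-5p, with 13, 17 and 31 counts in recovery libraries, and miR-154-5p. miR-154-5p had 0, 1 and 5 counts in control and 19, 11 and 15 counts in recovery libraries, and its log2 fold change was 2.5 ± 0.76 (SE). In bulk tissue, more cells that carry a miRNA and more miRNA per cell cannot be told apart.

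Of the 60 members, 27 were tested in all 3 comparisons and 28 in none. The largest total over the 9 libraries among the untested was 92 counts. In control, 22 members had no count in any library. A count of 0 over the group allows up to 3 counts, or 0.118 CPM. The pooled level was 1.09 to 7.07 times this limit for 15 of the 22 in the TAA group, and 1.11 to 5.54 times for 14 in the recovery group. The lowest of these in recovery were both miR-299b rows, with 4 counts each, all in recovery replicate 3. miR-1193-5p, which shares its seed with miR-379-5p, was above the limit in both groups. It had 26 counts over the TAA libraries and 8 over the recovery libraries, 4.71 and 2.22 times the limit. The limit covers counting error in control only, and the counts of the treated groups were taken as they stand, so these ratios are not lower bounds.

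In recovery vs TAA, 32 members were tested. On the TMM scale 1 member was called up and 2 were called down, against 10.2% and 14.5% of the 440 rows tested. The median log2 fold change was 0.08 over the members tested and -0.12 over all rows, with 17 members above 0 and 15 below. On library totals, no member was called up and 9 were called down, where 0.909% of all rows were called up and 46.1% down. The median was then -0.78 over the members and -0.98 over all rows, with 4 members above 0 and 28 below. Without TAA replicate 1, 8 members were called, 1 up and 7 down, against 12.3% and 16.2% of all rows. Without TAA replicate 3 there were 2, 1 up and 1 down, against 10.2% and 13.5%. Without recovery replicate 1, miR-376b-3p was called up and no member down, against 9.62% and 10.3% of all rows, and without recovery replicate 2 the same, against 10.1% and 10.8%.

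miR-376b-3p, of the miR-376 family known for A-to-I editing of its precursors, was the member called up. It was at 0.484, 2.34 and 0.945 CPM in control, 2.25, 4.48 and 5.21 CPM in TAA and 12.1, 14.2 and 18 CPM in recovery libraries. Every recovery library was above every TAA library, and TAA replicate 1 overlapped control replicate 2. Its log2 fold change was 1.81 ± 0.35 (SE) between recovery and TAA, 3.54 ± 0.43 between recovery and control, and 1.63 ± 0.59 between TAA and control. On library totals the first value was 0.95. The other arm of the same hairpin, miR-376b-5p, had 12, 32 and 39 counts in TAA and 29, 43 and 45 counts in recovery libraries, a log2 fold change of 0.99 ± 0.46 (SE), which was not called.

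The members called down lie side by side near the 3' end. miR-369-5p was at 0.678, 0.39 and 0.81 CPM in control, 3.38, 6.89 and 8.69 CPM in TAA and 1.52, 2.34 and 2.43 CPM in recovery libraries. Every recovery library lay below every TAA library and above every control library. Its log2 fold change was -1.66 ± 0.41 (SE) against TAA and 1.66 ± 0.42 against control in recovery livers. miR-410-3p, which closes the cluster's name, was at 0.194, 0.52 and 0.27 CPM in control, 2.91, 6.35 and 5.82 CPM in TAA and 0.871, 2.06 and 2.89 CPM in recovery libraries. Recovery replicate 3 lay just under TAA replicate 1, with no overlap. Its log2 fold change was 3.88 ± 0.53 (SE) in TAA vs control, the highest of the members tested there, and -1.43 ± 0.48 in recovery vs TAA.

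miR-369-5p kept its call in 12 of 14 other settings, with log2 fold changes from -2.52 to -1.33. miR-376b-3p kept it in 13 of 15, from 0.89 to 2.09, and lost it on library totals and with limma on log2(TPM + 1). miR-410-3p kept it in 7 of 14, from -2.28 to -1.03. Its call was lost with the size factors of DESeq2, with TMM factors computed without the imprinted region, and without TAA replicate 2 or 3 or any 1 of the recovery libraries. The fit relative to the members' sum, given below, is not among these settings.

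A view that needs no scale between libraries is the share of each hairpin in the member counts of its own library. Mir376b held 0.917%, 1.13% and 1.02% of the member counts in control, 0.426%, 0.379% and 0.483% in TAA and 1.26%, 1.27% and 1.14% in recovery libraries. The TAA libraries were thus below all others. The last 4 hairpins of the cluster, Mir412, Mir369, Mir410 and Mir3072, were higher in TAA than in recovery. They held 0.826%, 0.566% and 1.18% of the member counts in control, 1.21%, 1.28% and 1.35% in TAA and 0.395%, 0.477% and 0.494% in recovery libraries. Lower shares in recovery were not particular to this end. Mir380 and Mir323, near the 5' end, held 0.264%, 0.291% and 0.211% in TAA and 0.117%, 0.144% and 0.0672% in recovery libraries. Over the 36 hairpins, the share in every recovery library was below that in every TAA library for 11 (Mir380, Mir323, Mir1193, Mir495, Mir376a, Mir300, Mir382, Mir134, Mir412, Mir369 and Mir410) and above it for 3 (Mir299a, Mir376b and Mir485), and 22 overlapped. When the counts of all 440 rows tested were divided by the same sum, 23.9% were below and 5.68% above without overlap. These were single rows that passed the filter on low counts, whereas the 36 hairpins had their arms summed and no filter. For rows outside the cluster, the quotient also carries the level of the cluster in the library, so the shares are not fully alike. Hairpins were grouped after their values were seen, and no test is given. The control values rest on 9, 10 and 15 counts for the last 4 hairpins and on 10, 20 and 13 counts for Mir376b.

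When every row of the table was fitted relative to the members' sum in place of the library, an alternative chosen after seeing the data, 1 member was called up (miR-376b-3p, log2 fold change 1.69) and 1 down (miR-369-5p, -1.77) in recovery vs TAA. Over all rows, 0.682% were called up and 10% down on this scale. miR-410-3p stood at -1.62 and was not called. In TAA vs control, no member was called relative to the members' sum (77.6% of all rows were, in either direction), and the members ranged from -1.36 to 0.98 around a median of 0.11. In recovery vs control, miR-369-5p alone among the members was called, with -1.55 (89.5% of all rows). This scale sets the members' sum equal between libraries. In the comparisons with control, few calls among members and many over all rows follow by construction, and nothing is read from these shares.

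**Figure D3:**
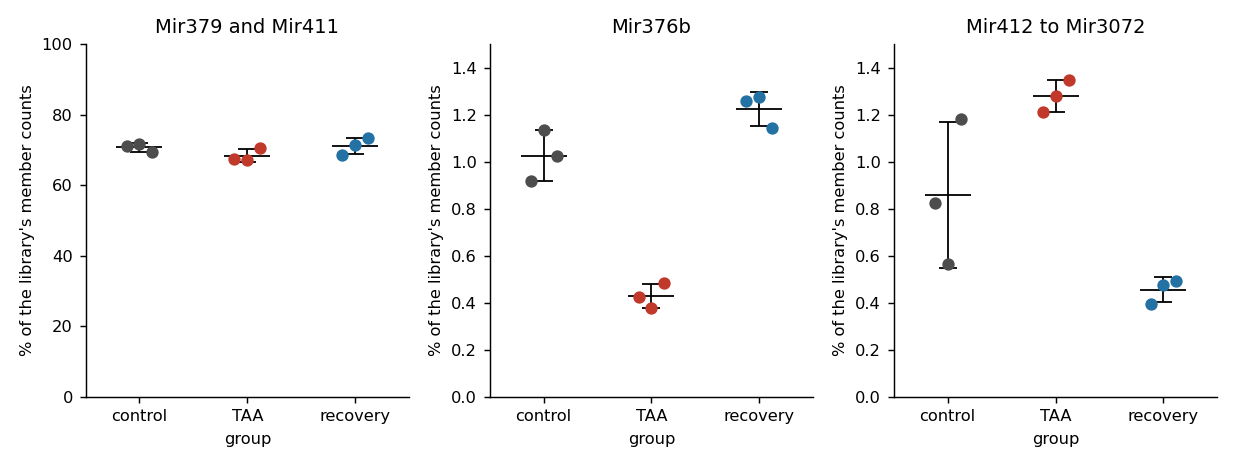
Share of the counts of Mir379 and Mir411 (left), Mir376b (middle) and the hairpins from Mir412 to Mir3072 (right) in the member counts of each library (y axis, %; x axis, group; points are mice, line and bars are mean and SD, n = 3). Mir376b is lowest in TAA (0.429% ± 0.0522) and the last hairpins are lowest in recovery (0.455% ± 0.053), while Mir379 and Mir411 hold about the same share throughout.

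Position along the cluster was compared with the fold change. The hairpins were cut in order into 3 runs of 12. The first run, Mir379 to Mir666, held 73.4%, 70.9% and 74.4% of the summed member counts of the control, TAA and recovery groups. The second run, Mir543 to Mir382, held 13.7%, 13.1% and 12.3%, and the third, Mir134 to Mir3072, held 12.9%, 15.9% and 13.4%. The median log2 fold change in recovery vs TAA was 0.15 over 11 members tested in the first run, -0.07 over 9 in the second and -0.03 over 12 in the third, and in each run members stood on both sides of 0. Spearman's rho between position and the log2 fold change in recovery vs TAA was -0.35 over the 32 members tested and -0.13 over 29 once the rows of Mir369 and Mir410 were left out. In TAA vs control rho was 0.28 over 29 members, and in recovery vs control it was -0.24 over 29. These are descriptions across members that share their libraries. Among the members tested, the lowest values in recovery vs TAA near the 3' end were those of Mir369 and Mir410. Mir412, which lies between Mir409 and Mir369 and was too low to be tested, had 43 counts over the TAA libraries and 8 over the recovery libraries, 0.26 times its TAA level on the TMM scale. Mir369 stood at 0.41 times its TAA level, Mir410 at 0.39 times, Mir3072 at 0.87 times (20 and 12 counts) and Mir409 at 1.09 times. Low values were also found far from the 3' end, where Mir323 stood at 0.30 times (75 and 15 counts).

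**Figure D4:**
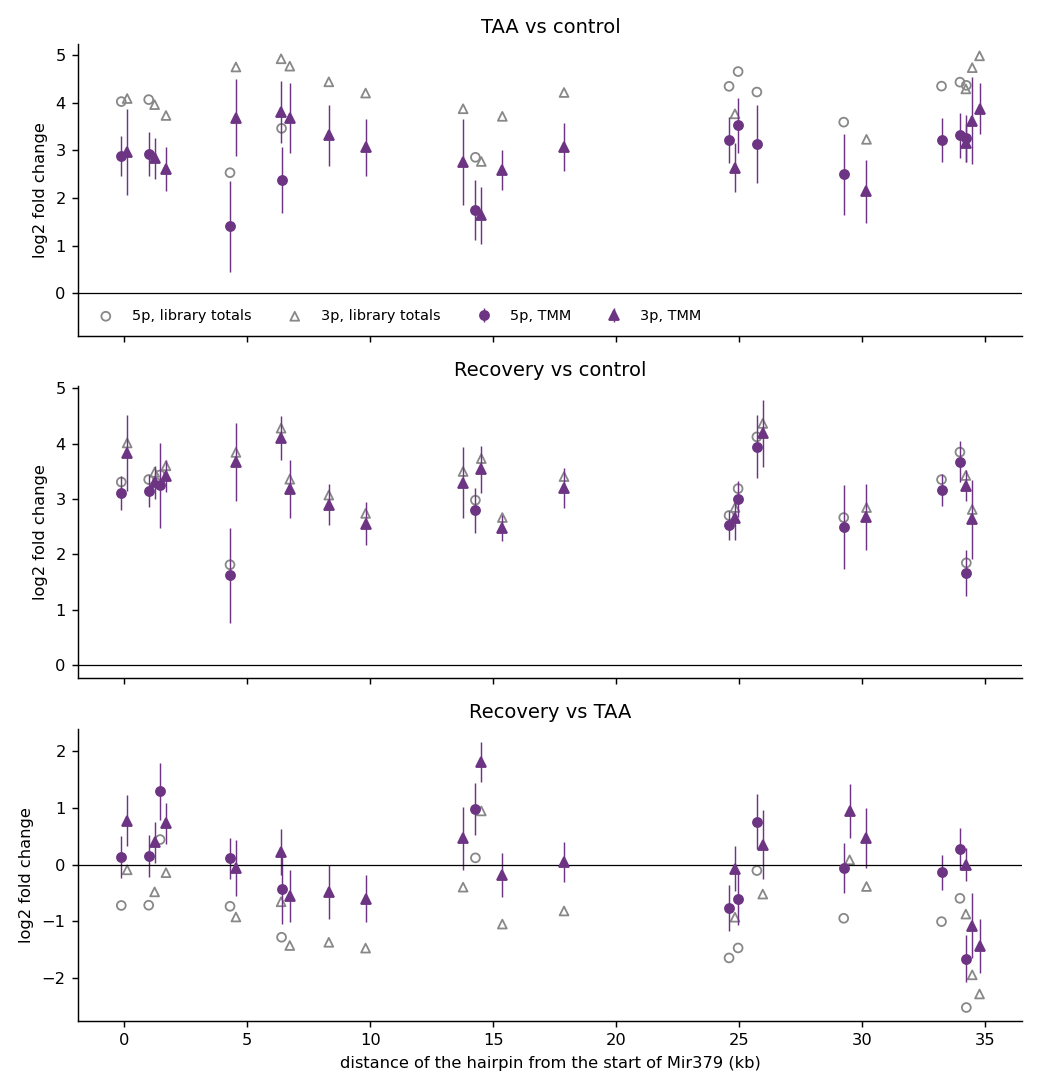
Log2 fold change of each member tested (y axis) against the distance of its hairpin from the start of Mir379 (x axis, kb) in the 3 comparisons. Filled symbols with SE bars are on the TMM scale, open symbols on library totals, circles are 5p and triangles 3p arms. In recovery vs TAA the highest filled point is miR-376b-3p (1.81) and the lowest are miR-369-5p (-1.66) and miR-410-3p (-1.43), and the open symbols lie lower by about the same amount throughout.

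Which arm held most of the counts differed between hairpins. Over all libraries the 5p arm held most counts in 9 of the 24 hairpins with both arms listed, the 3p arm in 9, and in 6 the exact 95% binomial interval included an equal share. Mir379 gave 99.1% 5p (interval 99.0% to 99.2%, 33149 counts), Mir411 97.1% (96.9% to 97.2%, 46068 counts) and Mir541 99.8% (99.7% to 99.9%, 8188 counts). Mir409 gave 13.7% 5p (12.8% to 14.6%, 5352 counts) and Mir300 0.492% (0.254% to 0.858%, 2440 counts). Mir382 was nearly balanced, with 56.4% 5p (54.0% to 58.8%, 1655 counts). Intervals cover counting error only.

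The ratio of the arms within a library does not depend on scaling and was not used to choose the members, so it was tested. Of 110 hairpin names with a mean of at least 10 counts per arm, 5.45% changed their arm ratio between recovery and TAA, 0% between recovery and control, and 5.45% between TAA and control (edgeR with a term for each library, FDR below 0.05). Of the 9 hairpins of the cluster among them, 0 changed in any comparison by edgeR, and 0 by limma on the log2 ratio. The number with an unadjusted p below 0.05 was also 0 by edgeR and 0 by limma in each comparison. The lowest FDR by edgeR was 0.25 for recovery vs TAA, 0.997 for recovery vs control, 0.41 for TAA vs control. In recovery vs TAA the log2 ratio of 5p to 3p differed by -0.65 for Mir382, -0.64 for Mir379 and -0.78 for Mir376b.

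At Mir382 the 5p share was 54.2%, 57.3% and 68.6% in TAA and 54.6%, 49.7% and 44.3% in recovery libraries, so the groups overlapped. At Mir379 it was 99.4%, 99.3% and 99.2% in TAA and 98.8%, 99.1% and 98.9% in recovery libraries. At Mir376b it was 24%, 32.3% and 33.3% in TAA and 20.7%, 22.05% and 18.9% in recovery libraries. These 2 of the 9 hairpins did not overlap between the groups, against 24.5% of the 110 hairpin names tested, and their edgeR FDR was 0.25 each. Control libraries had 10 to 20 counts at Mir376b, and the change that could be detected there was not tested.

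**Figure D5:**
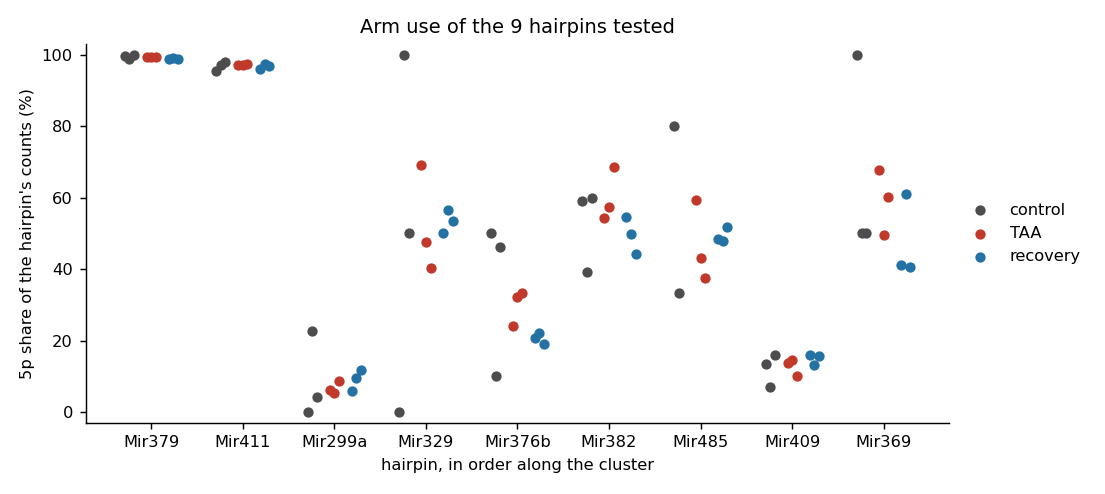
Share of the 5p arm in the counts of each of the 9 hairpins tested (y axis, %; x axis, hairpins in order along the cluster; points are mice, colours are groups). Mir379 and Mir411 stay above 95% and Mir409 below 17% in every library, and the wide scatter of the control points at Mir329, Mir376b, Mir485 and Mir369 rests on few counts.

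The cluster was also compared with the rest of the imprinted region. Other miRNAs of the region were grouped by number into an Rtl1-antisense group (23 rows) and a Rian group (4 rows), encoded upstream on the same chromosome. The Rtl1-antisense rows were at 42.1, 81.6 and 51.6 summed CPM in control, 263, 779 and 683 in TAA and 395, 489 and 622 in recovery libraries. The log2 ratio of summed member counts to the summed counts of these rows was 1.52 ± 0.20 in control, 1.27 ± 0.12 in TAA and 1.604 ± 0.048 in recovery libraries (SD, n = 3). It differed by 0.33 between recovery and TAA, by 0.09 in recovery vs control and by -0.24 in TAA vs control. These are descriptions, since the summed members chose the cluster, and with 3 libraries against 3 the smallest permutation p is 0.1. Without the most abundant row of each set the difference in recovery vs TAA was 0.15, and as a mean of log2(CPM + 1) it was 0.14. With all rows summed, every recovery library had a higher ratio than every TAA library, 2.93 to 3.13 member counts per Rtl1-antisense count against 2.24 to 2.65. In both alternatives just given, the recovery and TAA libraries overlapped. Within the Rtl1-antisense group, miR-136-3p and miR-3071-5p had nearly the same mean level. Their CPM were 6.89 and 6.82 in control, 38.6 and 38.3 in TAA and 59.2 and 58.4 in recovery livers. Reads shared by this pair would enter the sums and calls more than once, which was not tested.

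The Rtl1-antisense rows moved with the cluster. All 10 tested rows were called up in TAA livers and all 9 in recovery livers against control, with median log2 fold changes of 3.40 and 3.05. In recovery vs TAA, 1 of 12 was called down and none up, with a median of -0.45. Of the 12 rows, 3 stood above 0 there. They were miR-337-5p, at 0.635, and the pair miR-136-3p and miR-3071-5p, which may share reads, at 0.53 and 0.52. The Rian rows were few, with 4 to 16 counts in a control library, and their summed CPM was 9.61, 36.3 and 25.7 in TAA and 8.06, 6.74 and 10.7 in recovery libraries. Both tested Rian rows were called up against control in the TAA and the recovery group, and 1 of 2 was called down in recovery vs TAA, where their median was -1.48. Of 10 rows of imprinted miRNAs outside this region, 3 of 5 tested were called up in TAA vs control, 3 of 5 down in recovery vs TAA and 0 of 2 in either direction in recovery vs control.

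Marker miRNAs of the cell types in the tissue are given beside the cluster as summed CPM in control, TAA and recovery libraries, and their part in its level was not tested. All rows of these lists were found, and none was at 0 in every library. The stellate cell and fibroblast list (5 rows) spanned 25835 to 30991, 17868 to 39329 and 22275 to 36463 CPM, so that the groups overlapped, with 3 of 5 rows called up in TAA vs control and 3 of 5 down in recovery vs TAA. The biliary epithelium list (3 rows) spanned 557 to 750, 3219 to 5263 and 1225 to 1398 CPM, with 3 of 3 rows called up in TAA vs control, 3 of 3 down in recovery vs TAA and 1 of 3 up in recovery vs control. The leukocyte list (4 rows) spanned 187 to 211, 260 to 309 and 144 to 221 CPM, with 1 of 4 rows called up and then 1 of 4 down in the same comparisons. The endothelium list (2 rows) spanned 8445 to 8829, 5648 to 6865 and 8502 to 9300 CPM, and the red cell list (3 rows) 778 to 1357, 204 to 459 and 334.7 to 634 CPM, with 1 of 3 red cell rows called down against control in both groups and no endothelium row called. The neuron and endocrine list (4 rows), for tissues where the cluster is known, spanned 1851 to 2469, 1904 to 2634 and 1786 to 2242 CPM, with 1 of 3 tested rows called up in TAA vs control. The gonad list (2 rows) was at 0 in control, at 0.0593 to 0.0669 CPM in TAA and at 0.187 to 0.544 CPM in recovery libraries.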

How the data were processed

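Small RNA libraries of 9 mouse livers (3 control, 3 TAA, 3 recovery) were analysed. The authors aligned single-end reads with Bowtie 1.3.0 against mm10 and miRBase, and deposited a read count and a TPM value per mature miRNA; in the deposited table the TPM equalled the count divided by the library total and multiplied by 1000000. The counts were not normalized. Depth was 9071847 to 12983378 counts per library. Replicates differed by more than sampling noise, and each counted as 1 sample.

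Counts were tested with edgeR 4.0.16 (R 4.3.3) on the 6 libraries of each comparison: filterByExpr with a minimum count of 10, TMM factors, the quasi-likelihood F test and Benjamini-Hochberg adjustment over all rows tested. The SE was approximated from the F statistic. Printed CPM use TMM factors over the 9 libraries. Arm ratios were tested with edgeR on hairpin names with at least 10 mean counts per arm, with a term for each library. Ratios of sums were compared with exact permutation tests (scipy 1.17.1), whose p-values are not given because the members were chosen by their sums. The fits were tested on simulated data. DESeq2 1.42.0, limma 3.58.1 on log2(TPM + 1), other scales and filters, a replicate block and leaving out each library were alternatives.

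The members, lists and named miRNAs were chosen with earlier results of these data known. Named with values were the 8 members of highest mean CPM, those called in recovery vs TAA, the 3 highest and 3 lowest in recovery vs TAA at a mean of at least 10 CPM, those tested but not called against control, and those sharing a seed; others named were chosen after their values were seen. Replicates were separate mice. The mRNA libraries were not analysed here.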

Additional observations from a re-analysis of the deposited data

How the results depend on the processing

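The calls against control held in direction and within 1.5 times of their count under every setting but those named here. When a row needed 10 CPM on average in the 6 libraries fitted, only 7 members were tested in each comparison with control, and all 7 were called. Relative to the members' sum, 0 members were called between TAA and control and 1 between recovery and control, which that scale sets by construction. The median of the members in TAA vs control was 4.21 on library totals, and in recovery vs control it was 1.98 with limma on log2(TPM + 1). In recovery vs TAA the number called was 9 on library totals, 5 with limma, 7 without a filter and 1 at a mean of at least 10 CPM, and it ranged from 1 to 8 with 1 library left out (8 without TAA replicate 1, and 1 without recovery replicate 1 or 2). The median in recovery vs TAA was -0.78 on library totals and -0.60 with limma, and from -0.23 to 0.41 with 1 library left out. For limma, the changed filters and the omissions not detailed above, the share called over all rows was not counted. Nothing is read from the number of members called in these settings. Beyond the construction of these scales and filters, the cause was not tested.

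The ratio of the members to the Rtl1-antisense rows in recovery vs control turned to -0.0146 as a mean of log2(CPM + 1) and ranged from -0.00869 to 0.195 with 1 library left out, the lowest without control replicate 1. In the other comparisons it kept its sign. The arm test called 0 hairpins of the cluster in every setting. Of 640 values of single named members under the alternatives, 574 moved by less than 1 SD and none of the called ones changed sign. Counts under 10 per library, as for most members in control, limit what can be seen.

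With a block for the replicate number, 4 members were called between recovery and TAA, 26 between recovery and control and 28 between TAA and control, with medians of 0.09, 3.19 and 3.02. The share over all rows was not counted with this block either. Mice with the same number deviated together in no steady way (r from -0.24 to 0.22 over 445 rows), so the block pairs nothing, and not every mouse correlated best with its own number.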
